A study of Rattus norvegicus with 6 samples.

Results

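Messenger RNA of 10 genes of the acute phase response and of the interleukin-6 (IL-6) pathway that drives it was followed in 6 liver libraries from rats with liver fibrosis. The 10 genes were chosen by symbol, and all 10 were found among the 16209 rows of the expression table. They are the secreted proteins Lcn2, Lbp, Crp, A2m, Orm1 and Hp, the receptors Il6r and Il1r1, the transcription factor Stat3 and the feedback inhibitor Socs3. Of the 6 bulk RNA libraries, 3 came from fibrotic rats given vehicle and 3 from fibrotic rats dosed with the plant biflavone ginkgetin (10 mg/kg/day). The strain, sex and age of the rats, the agent that caused the fibrosis and the length of treatment were not stated in the sources read here, and no library comes from a liver without fibrosis. The vehicle columns of the table carry the letters TAA, which the labels do not explain. They were taken as vehicle because it is the only other group, and every direction below rests on that.

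The acute phase response is the switch in hepatocyte secretion that follows infection or injury. IL-6 binds its receptor and the shared subunit gp130, Janus kinases then phosphorylate STAT3, and STAT3 raises the transcription of acute phase genes and of Socs3, which shuts the signal down. IL-1 acts beside it through NF-kB and the C/EBP factors, and some plasma proteins, albumin among them, are made less. In the rat A2m is the classic strongly induced acute phase protein, whereas Crp is made at a high level without inflammation. Lcn2, lipocalin-2, binds bacterial siderophores and is made by stressed hepatocytes, injured epithelia and neutrophils.

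Reads assigned to genes numbered 13372367 to 14933853 per library, and values below are normalized reads, each scaled by 1 factor for its library. No gene length was used, so levels are compared between libraries and never between genes. Vehicle replicate 3 stood apart in its hepatocyte markers. Alb, which encodes albumin, the defining hepatocyte product, took 2.89% of its reads against 6.56% to 12.11% in the other 5 libraries. The 11 hepatocyte markers in the table summed to 281328 to 1839047 normalized reads in the vehicle libraries and to 1401394 to 2307892 with ginkgetin, lowest in vehicle replicate 3. In bulk liver, fewer cells of a type and less RNA per cell cannot be told apart. Most acute phase proteins are hepatocyte products, so the fold change of each of the 9 tested genes and the median of each pathway list are given with and without that library.

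RefSeq sequence before the annotated start was matched by symbol for 7 of the 10 genes (build GRCr8, whereas the expression table rests on mRatBN7.2). The 3 stretches below are those of at least 150 bases. They belong to Lcn2, which varied most among the vehicle libraries, to Crp and to Orm1. Crp was highest in the vehicle library where Lcn2 was lowest, and Orm1, also a lipocalin, varied 2.06-fold. Each stretch runs 5′ to 3′ on the gene's strand and stops where any annotated transcript of the gene begins. Capitals mark matches, on either strand, to a STAT site (TTCNNNGAA), a C/EBP site (TTGCNNAA) or an NF-kB type site (GGGNNNNNCC), where N is any base.
Lcn2, chr3:36081852-36082030, minus strand: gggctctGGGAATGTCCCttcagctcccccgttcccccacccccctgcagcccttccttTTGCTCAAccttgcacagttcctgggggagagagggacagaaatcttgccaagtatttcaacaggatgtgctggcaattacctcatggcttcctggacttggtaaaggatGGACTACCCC
Crp, chr13:87693812-87694061, plus strand: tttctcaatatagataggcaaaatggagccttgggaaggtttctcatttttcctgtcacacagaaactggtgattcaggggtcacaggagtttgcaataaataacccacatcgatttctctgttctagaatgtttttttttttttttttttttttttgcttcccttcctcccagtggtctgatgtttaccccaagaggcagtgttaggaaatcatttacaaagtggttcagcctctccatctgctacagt
Orm1, chr5:81788259-81788508, plus strand: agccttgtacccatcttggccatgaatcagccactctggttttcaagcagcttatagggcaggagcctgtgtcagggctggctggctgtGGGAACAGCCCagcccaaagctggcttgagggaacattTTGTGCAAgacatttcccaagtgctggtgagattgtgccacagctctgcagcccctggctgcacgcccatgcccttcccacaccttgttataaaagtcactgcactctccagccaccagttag

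Lcn2 held 1 C/EBP match, TTGCTCAA, and NF-kB type matches at GGGAATGTCC, which overlaps its own match on the other strand, and at GGACTACCCC. Orm1 held the C/EBP match TTGTGCAA and the NF-kB type match GGGAACAGCC, also read on both strands. None of the 3 motifs was found in the Crp stretch, and no STAT match was found in any of the 3. The rest of the 250 bases before the Lcn2 start held no further match. Among the 250 bases before the start of 33469 annotated promoters, a STAT match was present in 7.7%, a C/EBP match in 9.2% and an NF-kB type match in 42.3%. The NF-kB type letters are therefore common, and a match describes the sequence only.

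Lcn2 gave the widest spread of the 10 genes. It stood at 21.4, 2190 and 1458 normalized reads in vehicle replicates 1 to 3 and at 113, 18.5 and 12.4 in ginkgetin replicates 1 to 3. Vehicle replicates 2 and 3 were high, and vehicle replicate 1 lay inside the ginkgetin range, so the groups overlapped. Vehicle replicate 1 had 18 Lcn2 reads of 13372367 in all, and vehicle replicate 2 had 2633 of 14150827. The vehicle range was 6.61 log2 units, and only 14 of the 14639 genes tested had a wider one. Under vehicle the log2 level was 8.70 ± 3.66 (SD, n = 3), under ginkgetin it was 4.95 ± 1.65 (SD, n = 3), and the log2 fold change of -3.74 (SE 1.65, 95% interval -7.54 to 0.05) did not pass (limma adjusted p = 0.249). Across all genes 0.0137% passed this test.

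The size of the Lcn2 difference rested on which vehicle library was in the fit. Without vehicle replicate 1 it was -5.85 and passed (limma adjusted p = 0.0218), in a fit where 4.75% of all genes passed. Leaving out vehicle replicate 2 gave -2.54 and leaving out vehicle replicate 3 gave -2.84, and neither passed. DESeq2 on reads recovered from the values also called Lcn2 lower (-4.67, adjusted p = 0.0348), where 9.60% of genes were called, and edgeR on the same reads did not (-4.66, adjusted p = 0.145).

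**Figure D1:**
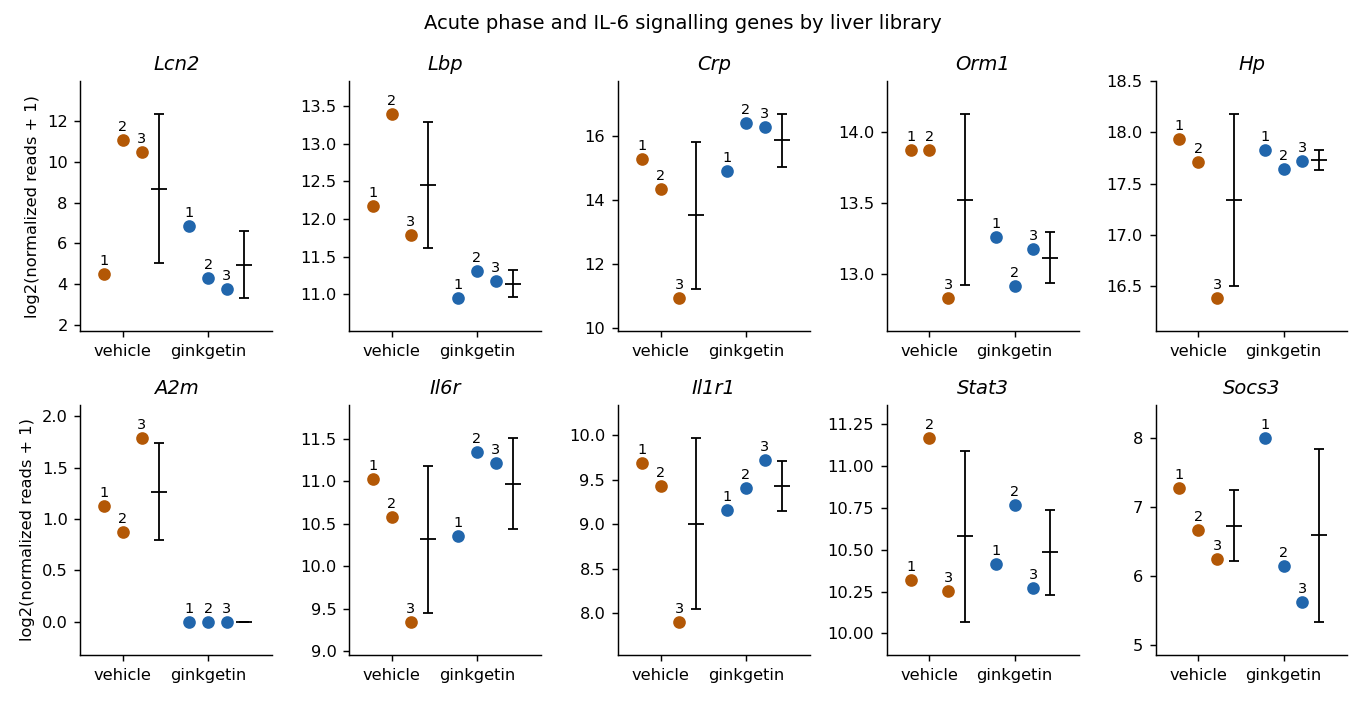
Levels of the 10 genes in each library, as log2(normalized reads + 1), with vehicle in brown, ginkgetin in blue, replicate numbers above the points, and mean ± SD (n = 3) as black bars; each panel has its own axis, which does not start at 0. Vehicle replicate 1 of Lcn2 lies among the ginkgetin libraries, the 3 Lbp values of each group do not overlap, and vehicle replicate 3 is the lowest of the 6 libraries for Crp, Orm1, Hp, Il6r and Il1r1.

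On the deposited scale no other gene of the set followed Lcn2 across the vehicle libraries. Lcn2 ordered them as replicate 2, then 3, then 1. Of the other 8 tested genes 0 had that order, which is near the background of 9.2% of all genes tested. With 3 libraries an order is a description and was not tested. From vehicle replicate 1 to the other vehicle libraries Lcn2 was 103-fold and 68.3-fold higher. Lbp was 2.34-fold higher in vehicle replicate 2 and 0.771 times the level in vehicle replicate 3. Stat3 was 1.8-fold higher in vehicle replicate 2 and 0.956 times in vehicle replicate 3. Both shared with Lcn2 its highest library, and neither shared its large gap between vehicle replicates 1 and 3.

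Crp was highest in vehicle replicate 1, where Lcn2 was lowest, and stood at 0.517 and 0.0491 times that level in vehicle replicates 2 and 3. Its order was not the reverse of that of Lcn2. Both were lower in vehicle replicate 3 than in vehicle replicate 2, by log2 steps of -3.40 for Crp and -0.59 for Lcn2. Hp, Il6r, Il1r1 and Socs3 also put vehicle replicate 1 first and vehicle replicate 3 last, as did the hepatocyte markers, whose mean log2 level about the mean of all 6 libraries was 0.53, -0.21 and -2.34. Orm1 was level between vehicle replicates 1 and 2, at 14979 and 14986 normalized reads, and lower in vehicle replicate 3. With equal library totals or quantile scaling, Lbp and Stat3 took the order of Lcn2. The other 6 did not, though under quantile scaling Hp had vehicle replicates 2 and 3 tied above vehicle replicate 1.

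**Figure D2:**
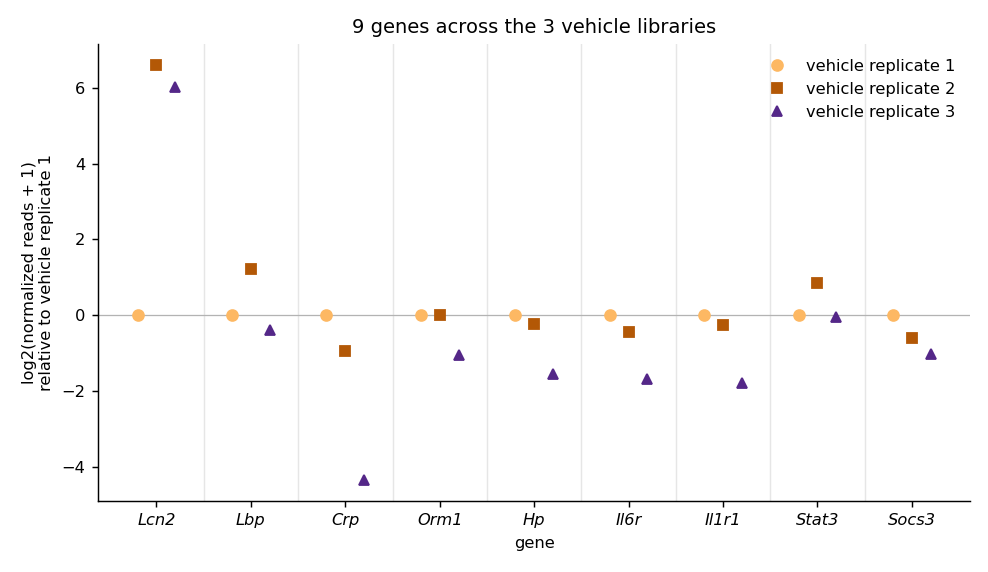
Level of the 9 tested genes in each vehicle library relative to vehicle replicate 1, in log2 units of normalized reads + 1; circles, squares and triangles are vehicle replicates 1, 2 and 3. Lcn2 is 6.61 and 6.03 units higher in replicates 2 and 3, Lbp and Stat3 are higher in replicate 2 alone, and Crp is 4.35 units lower in replicate 3.

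Likeness to Lcn2 was also measured over all genes, as the root mean square difference of log2 levels centred over the vehicle libraries. It was 2.80 for Stat3, 2.81 for Lbp and 3.23 to 4.38 for the other 6, where the median over all genes was 2.98. Of all genes, 29.7% were nearer than Stat3 and 31.0% nearer than Lbp. The measure counts the size of changes as well as their pattern, so a gene level across the vehicle libraries would lie near that median. Crp, at 4.38, was less like Lcn2 than 99.5% of genes. Among genes above the median level, the 5 most alike were Tubb6, a beta-tubulin, at 1.87, Ccl21, a lymphoid chemokine whose near-identical copies may share reads, at 1.93, Qsox1, a secreted sulfhydryl oxidase, at 2.04, and Dmbt1, a scavenger protein of epithelial ducts, and Ly49si1, a Ly49 family receptor, at 2.08 each. Over all 6 libraries the nearest above the median level were Tubb6, Ccl21, Clec10a, Bok and Loxl1, within 1.70 of it, against 2.55 for Lbp. Genes at lower levels came nearer. Of all genes tested, 1.5% were nearer than Tubb6 over the vehicle libraries and 0.4% over all 6. Ccl21 stood at 1827, 9629 and 7556 normalized reads under vehicle against 470, 93.7 and 30.9 under ginkgetin. Ccl21 shared the vehicle order of Lcn2, though with a range of 2.40 log2 units, and Qsox1 and Bok had that order too. Tubb6, Dmbt1, Ly49si1, Clec10a and Loxl1 did not, and were highest in vehicle replicate 3.

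Neutrophils and bile duct cells can also make Lcn2, so their markers are given beside it. Of 9 tested neutrophil markers, 4 put the vehicle libraries in the order of Lcn2, as did 9.2% of all genes tested. They were Mpo, Elane, Camp and Ngp, which encode granule proteins (Ngp was named after its values were seen). Mpo stood at 3.56, 22.5 and 4.91 normalized reads under vehicle against 0, 0 and 1.24 under ginkgetin, and Elane at 1.19, 13.3 and 8.59 against 0 in each ginkgetin library. These are few reads, with 3 for Mpo and 1 for Elane in vehicle replicate 1. The other 5 markers were highest in vehicle replicate 3 and lowest in vehicle replicate 2. Among them was S100a8, a calcium-binding protein of granulocytes, at 129, 103 and 481. The neutrophil list summed to 529, 511 and 1740 normalized reads in vehicle replicates 1 to 3 and to 111 to 437 with ginkgetin. All 9 genes had lower means with ginkgetin (median log2 fold change -1.81, or -1.25 with Elane at its bound of at least 2.2-fold lower, taken from 3 reads per library). Without vehicle replicate 3 the median was -1.18 and without ginkgetin replicate 2 it was -1.12, with 8 of the 9 lower in each.

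The 10 cholangiocyte markers summed to 2663, 3400 and 22061 normalized reads in vehicle replicates 1 to 3 and to 491 to 1150 with ginkgetin. Of the 22061 in vehicle replicate 3, Spp1 alone made up 18034, against 612 and 372 in vehicle replicates 1 and 2. Of the 10 markers, 2 had the vehicle order of Lcn2, Cftr and Sox9. Spp1 and Sox9 were named after their values were seen. The part of both cell types in the Lcn2 pattern was not tested. Of the proteins that bind Lcn2, Mmp9, which forms a complex with it, stood at 13, 29.1 and 49.7 normalized reads under vehicle against 9.95, 3.47 and 24.7 under ginkgetin. Its groups overlapped. The Lcn2 receptors Slc22a17 (289, 418 and 283 against 468, 322 and 403) and Lrp2 (186, 271 and 41.1 against 190, 224 and 177) also overlapped between groups. So did Bdh2, an enzyme linked to the mammalian siderophore (217, 206 and 152 against 243, 139 and 339).

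Lbp, the plasma protein that carries bacterial lipopolysaccharide to CD14, was the only one of the 9 tested genes whose groups did not overlap. It stood at 4605, 10774 and 3549 normalized reads under vehicle against 1975, 2527 and 2303 under ginkgetin. The lowest vehicle library lay above the highest ginkgetin library, and the ginkgetin libraries were close together. Of all genes tested, 16.1% separated the groups in this direction and 11.4% in the other, so 1 lower and 0 higher of 9 are near that background. Under vehicle the log2 level was 12.45 ± 0.84 (SD, n = 3), and under ginkgetin 11.14 ± 0.18 (SD, n = 3). The log2 fold change of -1.31 (SE 0.46, 95% interval -2.37 to -0.25) did not pass over all genes (limma adjusted p = 0.18), and it was -0.84 without vehicle replicate 2. Leaving out vehicle replicate 3 gave -1.64 (limma adjusted p = 0.0801). DESeq2 called it lower (-1.48, adjusted p = 0.0223), and edgeR did not (-1.48, adjusted p = 0.157).

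Crp, C-reactive protein, had the highest values with ginkgetin and the lowest in vehicle replicate 3. It stood at 39488, 20426 and 1938 normalized reads under vehicle against 30640, 85266 and 78532 under ginkgetin. Ginkgetin replicate 1 lay below vehicle replicate 1, so the groups overlapped. The log2 fold change of 2.35 (SE 1.12, 95% interval -0.22 to 4.91) did not pass (limma adjusted p = 0.275), and it was 1.05 without vehicle replicate 3. The 20.4-fold range among vehicle libraries was wider than that of any other of the 10 genes except Lcn2, and 1.03% of all genes had a range at least as wide.

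Hp, haptoglobin, which binds free haemoglobin, took 1.04% to 1.82% of all reads in a library. It stood at 249995, 214365 and 85680 normalized reads under vehicle against 233268, 204218 and 216750 under ginkgetin, so 5 libraries lay close together and vehicle replicate 3 was low. The log2 fold change was 0.39 (95% interval -1.75 to 2.53, limma adjusted p = 0.832), and -0.09 without vehicle replicate 3. Orm1, the plasma lipocalin alpha-1-acid glycoprotein, stood at 14979, 14986 and 7292 normalized reads under vehicle against 9811, 7716 and 9257 under ginkgetin. Vehicle replicates 1 and 2 were above all ginkgetin libraries and vehicle replicate 3 below them. Its log2 fold change was -0.41 (95% interval -1.52 to 0.71, limma adjusted p = 0.653), and -0.75 without vehicle replicate 3.

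A2m, alpha-2-macroglobulin, was almost silent. It had 1, 1 and 4 reads in vehicle replicates 1 to 3 and 0 in each ginkgetin library, and it missed the filter on low values, so it was not tested. A count of 0 allows up to 3 reads, or 3.32 to 3.71 normalized reads in the ginkgetin libraries, which is above the vehicle values of 1.19, 0.832 and 2.46. A difference was not detectable at this depth.

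The receptors that start the response were present in every library. Il6r, the IL-6 binding subunit, stood at 2082, 1530 and 649 normalized reads under vehicle against 1311, 2604 and 2388 under ginkgetin (log2 fold change 0.66, 95% interval -0.44 to 1.76, limma adjusted p = 0.452). It was 0.17 without vehicle replicate 3. Il1r1, the signalling receptor for IL-1, stood at 822, 690 and 239 against 573, 680 and 844 (0.42, 95% interval -0.61 to 1.46, limma adjusted p = 0.611), and at -0.13 without vehicle replicate 3. For both, vehicle replicate 3 was the lowest library and the other 5 were mixed between groups.

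Downstream of the receptors, the Stat3 means of the groups lay close together. It stood at 1276, 2302 and 1220 normalized reads under vehicle against 1362, 1744 and 1235 under ginkgetin. Vehicle replicate 2 was the highest library and the rest overlapped. The log2 fold change was -0.10 (95% interval -0.85 to 0.66, limma adjusted p = 0.881), the narrowest interval of the 9 genes, and -0.26 without vehicle replicate 3. Socs3, the STAT3-induced inhibitor of gp130 signalling, stood at 154, 101 and 74.9 under vehicle against 256, 69.4 and 48.2 under ginkgetin. Ginkgetin replicate 1 held the highest value and the other ginkgetin libraries the lowest, a 5.32-fold range inside the group. Its log2 fold change was -0.14 (95% interval -1.56 to 1.27, limma adjusted p = 0.906), 0.34 without ginkgetin replicate 3 and -0.39 without vehicle replicate 3.

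**Figure D3:**
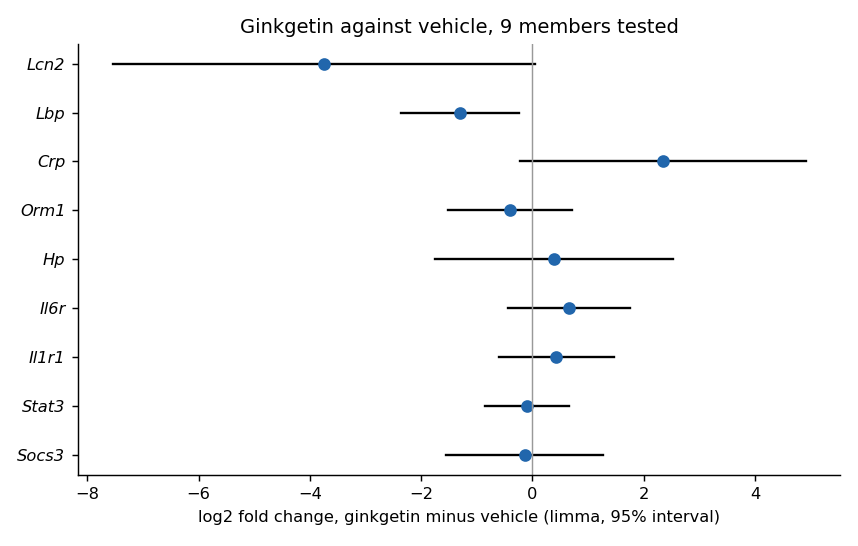
Log2 fold change of ginkgetin against vehicle for the 9 tested genes, with the 95% interval from limma; the vertical line marks no difference. The interval of Lbp (-2.37 to -0.25) lies below 0 before adjustment over all genes, that of Lcn2 ends at 0.05, and those of the other 7 also span 0.

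Of the 9 tested genes, 5 had lower means with ginkgetin (51.4% of all genes did) and 4 higher (48.6%), with a median log2 fold change of -0.10 against -0.02 over all genes. At an unadjusted p of 0.05, 1 was lower and 0 were higher, where the background was 13.2% and 7.00%. Relative to the mean level of hepatocyte markers, a scaling chosen after seeing the data, 8 of the 9 were lower and the median of all genes moved to -1.36. On that scale Lcn2 lay at -5.09 (limma adjusted p = 0.0020), Lbp at -2.65 (adjusted p = 0.0146) and Hp at -0.95 (adjusted p = 0.0375), in a fit where 4.26% of genes passed. Hp lay above the shifted median and the other two below it. Crp was the one gene still higher.

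Most other positive acute phase proteins had higher means with ginkgetin, on the side of Crp and not of Lbp. Of 24 tested, 20 were on the higher side and 4 on the lower, with a median log2 fold change of 0.80, and limma called 0 of them over all genes. Leaving out vehicle replicate 3 gave a median of 0.29, and leaving out vehicle replicate 1 gave 1.25. Groups were separate in 8, all higher with ginkgetin, where 11.4% of all genes were separate in that direction. Hamp, which encodes the iron hormone hepcidin, an IL-6 and BMP target, stood at 1777, 2030 and 1045 normalized reads under vehicle against 17395, 15694 and 6767 under ginkgetin (2.98, limma adjusted p = 0.0688). It passed without vehicle replicate 3 (2.69, limma adjusted p = 0.0368, where 0.574% of genes passed) or vehicle replicate 1 (3.07, limma adjusted p = 0.0336, where 4.75% passed). Without vehicle replicate 2 or any 1 ginkgetin library no gene passed, and Hamp was at 2.73 to 3.41 (limma adjusted p = 0.119 to 0.271). Mbl2, a mannose-binding lectin, was at 166, 79.8 and 19.6 against 227, 196 and 236. Apcs, serum amyloid P, was at 11607, 5823 and 1835 against 16840, 12351 and 16078, and Saa4, a constitutive serum amyloid A, at 19137, 11307 and 2658 against 19929, 22485 and 22966. In these last 3 the lowest library was vehicle replicate 3, as for the hepatocyte markers.

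Negative acute phase proteins, which hepatocytes make less of during inflammation, lay on the same side as the positive ones. Of 11 tested, 10 had higher means with ginkgetin, the median log2 fold change was 1.20, and 0 passed in limma. Without vehicle replicate 3 the median was 0.43, and that of the hepatocyte markers went from 1.31 to 0.51. Alb and Ttr are in both lists, so the medians are not independent. Apom, an apolipoprotein, stood at 6815, 4447 and 1478 normalized reads under vehicle against 15476, 7945 and 11631 under ginkgetin. Fetub, the fetuin-B gene, stood at 55554, 24311 and 8302 against 102523, 68534 and 116523, and Serpina6, corticosteroid-binding globulin, at 7088, 5022 and 1876 against 8280, 8598 and 14572. The exception was Serpina7, thyroxine-binding globulin, at 1044, 1254 and 345 against 237, 776 and 142.

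The IL-6 family genes split in both directions. Of 24 tested beside the members, 11 had lower and 13 higher means with ginkgetin, with a median log2 fold change of 0.05 (unchanged at 2 decimals with Lif at its bound). Groups were separate in 5 lower and 5 higher genes, 20.8% each way against 16.1% lower and 11.4% higher over all genes, and limma called 0. The median was 0.05 without vehicle replicate 3 as well, and -0.11 without vehicle replicate 2. Il6 itself had 2.37, 0 and 9.82 normalized reads with vehicle and 0 in each ginkgetin library, and was too low to test. Lif, a related ligand, had 4.75, 4.16 and 2.46 against 0, at least 1.08-fold lower against a floor of 3 reads per library. Osmr, the oncostatin M receptor that pairs with gp130, stood at 81.9, 180 and 170 normalized reads under vehicle against 48.6, 35.9 and 22.3 under ginkgetin (-1.97, SE 0.46, limma adjusted p = 0.101). It put the vehicle libraries in the same order as Lcn2, with groups that did not overlap. It passed without vehicle replicate 1 (-2.33, limma adjusted p = 0.0402, where 4.75% of all genes passed) and in no other fit with 1 library left out.

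Cntfr, a receptor chain for ciliary neurotrophic factor, was at 4.75, 9.98 and 22.7 normalized reads under vehicle against 153, 81 and 53.2 under ginkgetin (2.94, SE 0.65, limma adjusted p = 0.0951). Socs2, a feedback inhibitor better known for growth hormone signalling, stood at 209, 31.6 and 63.2 against 857, 1483 and 454 (3.46, SE 0.68, limma adjusted p = 0.0886). It passed without vehicle replicate 1 (4.19, limma adjusted p = 0.017, where 4.75% of all genes passed) and in no other fit with 1 library left out. Cntfr passed without vehicle replicate 3 (3.47, limma adjusted p = 0.0418, where 0.574% of all genes passed) and in no other such fit. The shared subunit Il6st, gp130, named after its values were seen, was at 247, 274 and 160 against 292, 1110 and 388, where ginkgetin replicate 2 was far above the rest.

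Among 14 tested STAT3 target genes, 9 had lower and 5 higher means, the median log2 fold change was -0.21, and 0 passed in limma. Osmr is in this list as well as in the IL-6 family list, so their counts are not independent. Without ginkgetin replicate 2 the direction turned, with 6 lower, 8 higher and a median of 0.12, and without vehicle replicate 3 the median was -0.27. Pim3, a survival kinase, stood at 1779, 699 and 388 normalized reads under vehicle against 1885, 2400 and 2708 under ginkgetin. It passed without vehicle replicate 1 (2.14, limma adjusted p = 0.0274, where 4.75% of all genes passed) and in no other fit with 1 library left out. Il4r, the IL-4 receptor chain, stood at 1490, 1362 and 1498 against 2197, 1933 and 1984, with groups apart. Icam1, an adhesion molecule, at 567, 936 and 534 against 418, 541 and 424, overlapped. Over the 14 genes, groups were separate in 1 lower, which was Osmr, and 2 higher, where the shares over all genes were 16.1% and 11.4%.

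Of 20 other IL-1 and lipopolysaccharide pathway genes, 10 had lower and 10 higher means (median log2 fold change -0.08, the same without vehicle replicate 3), and 0 passed in limma. Il1rap, the accessory chain that Il1r1 needs to signal, stood at 375, 278 and 164 normalized reads under vehicle against 498, 898 and 726 under ginkgetin (1.41, SE 0.35, limma adjusted p = 0.111). Il1rl1, the IL-33 receptor, stood at 67.6, 43.2 and 61.4 against 18.8, 9.26 and 3.71 (-2.54, SE 0.61, limma adjusted p = 0.106). The decoy receptor Il1r2 was at 15.4, 9.98 and 140 against 7.74, 0 and 2.47, and the ligand Il1a at 106, 31.6 and 4.3 against 379, 361 and 73. Groups were apart for Il1rap, Il1rl1 and Il1r2 and overlapped for Il1a. Over the 20 genes, groups were separate in 2 lower and 3 higher, near the background of 16.1% lower and 11.4% higher over all genes. Without vehicle replicate 1, Il1rap passed (1.68, limma adjusted p = 0.0424, where 4.75% of all genes passed), and in no other fit with 1 library left out.

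**Figure D4:**
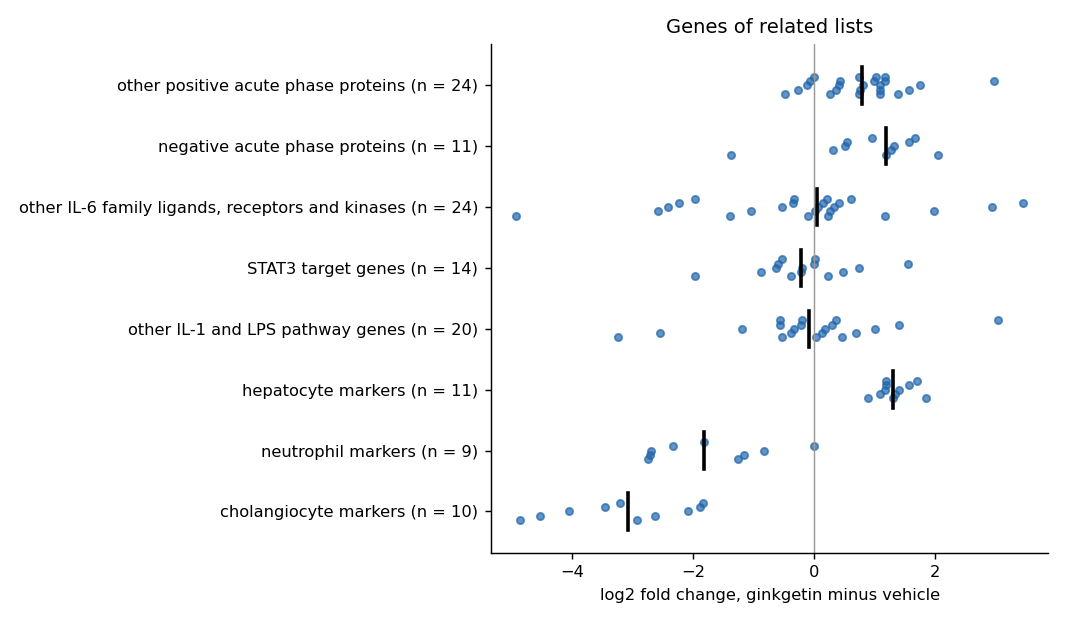
Log2 fold change of ginkgetin against vehicle for each tested gene (points) of 8 gene lists, with the list median as a black bar; vertical scatter within a row has no meaning. Medians are 0.80 and 1.20 for positive and negative acute phase proteins and 1.31 for hepatocyte markers, near 0 for the IL-6, STAT3 and IL-1 lists, and -1.81 and -3.07 for neutrophil and cholangiocyte markers; Elane and Lif, at 0 with ginkgetin, are drawn at fitted values that depend on the 1 added before logs.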

How the data were processed

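Liver RNA was made into libraries with a SMARTER kit, per the labels' protocols. Per the submitters' processing notes, the build was mRatBN7.2. Aligner, counter, annotation and strand setting are not stated, so reads of overlapping, antisense or near-identical genes cannot be told apart. The deposited table holds 1 signal value per gene and library, reads scaled in a way it does not name. In each library 99.67% of values were whole multiples of the smallest value within 0.02, so reads were recovered by rounding. Samples were grouped by title, and the ginkgetin and TAA columns were matched by name and number. The labels do not say that replicates came from separate animals, so the p-values cover only the variation between libraries, which may be technical.

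The main test was limma 3.58.1 (R 4.3.3), using a trended prior and robust moderation, on log2(value + 1). It covered the 14639 genes that reached 1 in at least 3 libraries. Fold changes are on that scale and understate those of low genes. Adjusted p-values are Benjamini-Hochberg over all genes tested, at 0.05. edgeR 4.0.16 and DESeq2 1.42.0 were run on recovered reads. The design foresaw an edgeR filter on expression for raw counts. Because the values are normalized, the genes of the limma fit were used instead. Alternatives were other pseudocounts, no filter, other scalings, the replicate number as a block, and leaving out each library. The procedure was tested on simulated reads. Intervals of fold changes are at 95%. Floors of 3 reads cover counting error only.

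The 10 genes and the lists were chosen with earlier results of these data known. All 10 genes are named. From each list up to 4 genes with the smallest p, and genes at 0, could be named. Genes most like Lcn2 were the 5 nearest by root mean square difference, above the median level. One gene that the naming rule selects is not reported here.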

Additional observations from a re-analysis of the deposited data

How the results depend on the processing

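The number of genes past 0.05 in limma was 2. It was 5 with a pseudocount of 5, 1 with quantile scaling, 94 with equal library totals, 624 scaled to hepatocyte markers, 0 with edgeR and 1339 with DESeq2, and with 1 library left out it ran from 0 to 696, highest without vehicle replicate 1 and 84 without vehicle replicate 3. At an unadjusted p of 0.05 edgeR had 2915 genes. With the replicate number as a block 0 genes passed and 2382 had an unadjusted p under 0.05. Deviations of same-numbered libraries from their group means correlated at -0.16, 0.03 and -0.21, which gave no sign that the numbers pair the samples. Not every library correlated best with its own number. With 3 libraries per group these values cannot exclude a pairing. The number of the 9 tested genes with lower means was 5, and 3 to 7 with 1 library left out, 3 of them without ginkgetin replicate 3. It was 8 scaled to hepatocyte markers. The number with the vehicle order of Lcn2 was 0, and 2 with quantile scaling and with equal library totals, the same Lbp and Stat3. Scaled to hepatocyte markers the order of Lcn2 itself became vehicle replicate 3, then 2, then 1, and 7 genes shared it, as did 87.7% of all genes. That scaling moved the median of all genes to -1.36 and equal library totals moved it to -0.53. Higher and lower calls at an unadjusted p of 0.05 split 1025 to 1938, 1117 to 1397 with quantile scaling, 348 to 2934 with equal library totals and 31 to 3010 scaled to hepatocyte markers.

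Lcn2, Lbp, Crp and Orm1 kept their direction under every alternative run. The sign changed for the other 5. Hp was -0.13 with quantile scaling and with equal library totals, -0.95 scaled to hepatocyte markers and -0.09 to 0.68 with 1 library left out, lowest without vehicle replicate 3. Il1r1 was -0.09 with equal library totals, -0.92 scaled to hepatocyte markers and -0.13 to 0.76 with 1 library left out, lowest without vehicle replicate 3. Il6r was -0.68 scaled to hepatocyte markers. Socs3 was 0.16 with quantile scaling, 0.18 with edgeR and with DESeq2, and -0.85 to 0.34 with 1 library left out. Stat3 was -0.26 to 0.20 with 1 library left out. The cause was not tested. Depth limits A2m and Il6, whose few reads allow no comparison.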

Other observations

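Vehicle replicate 2, which had the highest Lcn2, Lbp and Stat3, was also the highest vehicle library for 7 of 24 other positive acute phase proteins (29.2%) and for 7 of 14 STAT3 target genes (50.0%), where the share over all genes tested was 24.1%. The share for the acute phase proteins was near that background. Of those 24, 15 were highest in vehicle replicate 1 (62.5%, against 32.3% of all genes tested). These counts were made, and the genes below named, after the values were seen, and no test was run on them. The clearest were the metallothioneins, metal-binding proteins induced by glucocorticoids, zinc and IL-6. Mt1 stood at 8817, 31360 and 2620 normalized reads in vehicle replicates 1 to 3 and at 8783, 10814 and 13043 with ginkgetin. Mt2A ran alike, at 1956, 7147 and 619 against 1724, 1423 and 2757. Steap4, a metalloreductase induced in inflamed liver, stood at 783, 1628 and 850 against 933, 1103 and 935, and put the vehicle libraries in the order of Lcn2. Kng1, a kininogen, stood at 26432, 44910 and 18570 against 20578, 24051 and 25754. In each of these 4 genes vehicle replicate 2 was the highest of the 6 libraries. The rest of the 7 acute phase proteins lay close to vehicle replicate 1. In vehicle replicate 2 against vehicle replicate 1, Fgg stood at 46592 against 45866, Cp at 28372 against 26495 and Hamp at 2030 against 1777.

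Lrg1, a glycoprotein that is also a positive acute phase protein, was instead highest in vehicle replicate 3, at 483, 632 and 1452 normalized reads with vehicle against 660, 532 and 461 with ginkgetin. Cebpd, a C/EBP factor induced by IL-6, did likewise, at 250, 301 and 862 against 214, 346 and 140. In that library the hepatocyte markers were lowest and the stellate cell and myofibroblast markers, which summed to 125713 normalized reads against 3355 to 14509 in the other 5 libraries, were highest. The other cell type lists also had their highest sums there. Macrophage markers summed to 26499, of which Gpnmb made up 16728, against 3399 to 8477 in the other libraries. Neutrophil markers summed to 1740, cholangiocyte markers to 22061, endothelial markers to 6098 and lymphocyte markers to 1461. The part of any of these cell types in the Lrg1 and Cebpd values was not tested.

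Cish, a STAT5-induced inhibitor of the same family as Socs3, shared the high value of ginkgetin replicate 1. It stood at 52.2, 34.9 and 64.4 normalized reads under vehicle against 672, 141 and 80.4 under ginkgetin, and its log2 fold change of 1.99 was 1.10 without that library.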
